A study of Mus musculus with 4 samples.

Results

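The leukocyte integrins of the beta-2 and beta-7 families were followed in regulatory T cells sorted with or without Nrp1 (neuropilin-1), a surface protein that binds semaphorins and VEGF. The 6 genes encode the beta-2 chain (Itgb2), its alpha chains alpha-L (Itgal), alpha-M (Itgam) and alpha-X (Itgax), the beta-7 chain (Itgb7) and its alpha chain alpha-E (Itgae). They were chosen as a family and not by a rule on their values, though earlier results of these data were known. Every probe set listed with 1 of them alone was taken, 8 of the 45101 probe sets on the array. There, 18193 genes are named by probe sets of their own. The study compared CD4+ Foxp3+ Nrp1-positive cells (2 arrays) with CD4+ Foxp3+ Nrp1-negative cells (2 arrays), all from spleens of Balb/c Foxp3 GFP mice. The mice were 4 to 6 weeks old, apart from those of Nrp1-negative replicate 1, given as 4 to 8 weeks. The labels name no treatment, and they do not give the sex of the mice, any pooling of animals or the build of the GFP reporter. The labels do not state whether arrays of one group were made from different mice, so p-values measure only the spread between these samples, which may be technical.

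An integrin is a pair of an alpha and a beta chain, and neither reaches the cell surface well without its partner. Alpha-L with beta-2 forms LFA-1, the receptor with which lymphocytes hold on to ICAM proteins on other cells and on vessel walls. Alpha-M and alpha-X with beta-2 form Mac-1 and p150,95, best known from myeloid and dendritic cells and known there as CD11b and CD11c. Alpha-E with beta-7 binds E-cadherin on epithelium, and its alpha chain, CD103, also marks a subset of regulatory T cells. Alpha-4 with beta-7 is the receptor for the gut vessel addressin MAdCAM-1.

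The array titled Nrp1-negative replicate 1 is described as Nrp+ in its other labels, and it was kept in the group of its title. Nrp1 at the probe set 1448943_at was 9344 and 7745 in Nrp1-positive replicates 1 and 2, against 339 and 1223 in Nrp1-negative replicates 1 and 2. Those are intensities after the 4 arrays were brought to one trimmed mean, the scale used throughout. The replicate numbers differed in the files themselves, since the deposited trimmed means were 500.003 on both arrays numbered 1 and 150.001 on both numbered 2. Groups were therefore compared within each replicate number, and the test was limma with the replicate number as a block. The T cell gene Cd3e was at 5243 to 7924 in Nrp1-positive cells, against 5988 to 8016 in Nrp1-negative cells. Cd4, a gene of the sort itself, differed more between the replicate numbers, at 2261 and 755 in Nrp1-positive replicates 1 and 2, against 2199 and 723 in Nrp1-negative replicates 1 and 2. The Foxp3 probe set, for the gene that defines the sorted cells, was dim, at 2.16 and 19.9 in Nrp1-positive replicates 1 and 2, against 4.45 and 36.4 in Nrp1-negative replicates 1 and 2, and lay below the filter on low values.

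Among the integrins, Itgae had mean log2 differences that correspond to 1.43-fold and 1.42-fold higher levels in Nrp1-positive cells at its 2 probe sets, on the scale of log2(intensity + 18.3), without passing the test. Most of that difference lay in replicate 1. Itgb2, Itgb7 and the Itgal probe set 1435560_at differed by less than 0.22 log2 units in either replicate. Itgam and Itgax were dim, at percentiles 54.9 and 59.4 of mean level over all probe sets, and they differed more between the replicate numbers than between the groups. None of the 8 probe sets reached an adjusted p below 0.05 when the block was fitted in limma, 0 of 8, where 0.209% of the 22519 probe sets tested passed, 29 higher and 18 lower. Their adjusted p-values ran from 0.330 to 0.980. At an unadjusted p below 0.05 there were 2 of the 8, both of Itgae, against 6.87% of all tested, and limma without the block also passed 0 of 8 and 0 of all 22519.

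**Figure D1:**
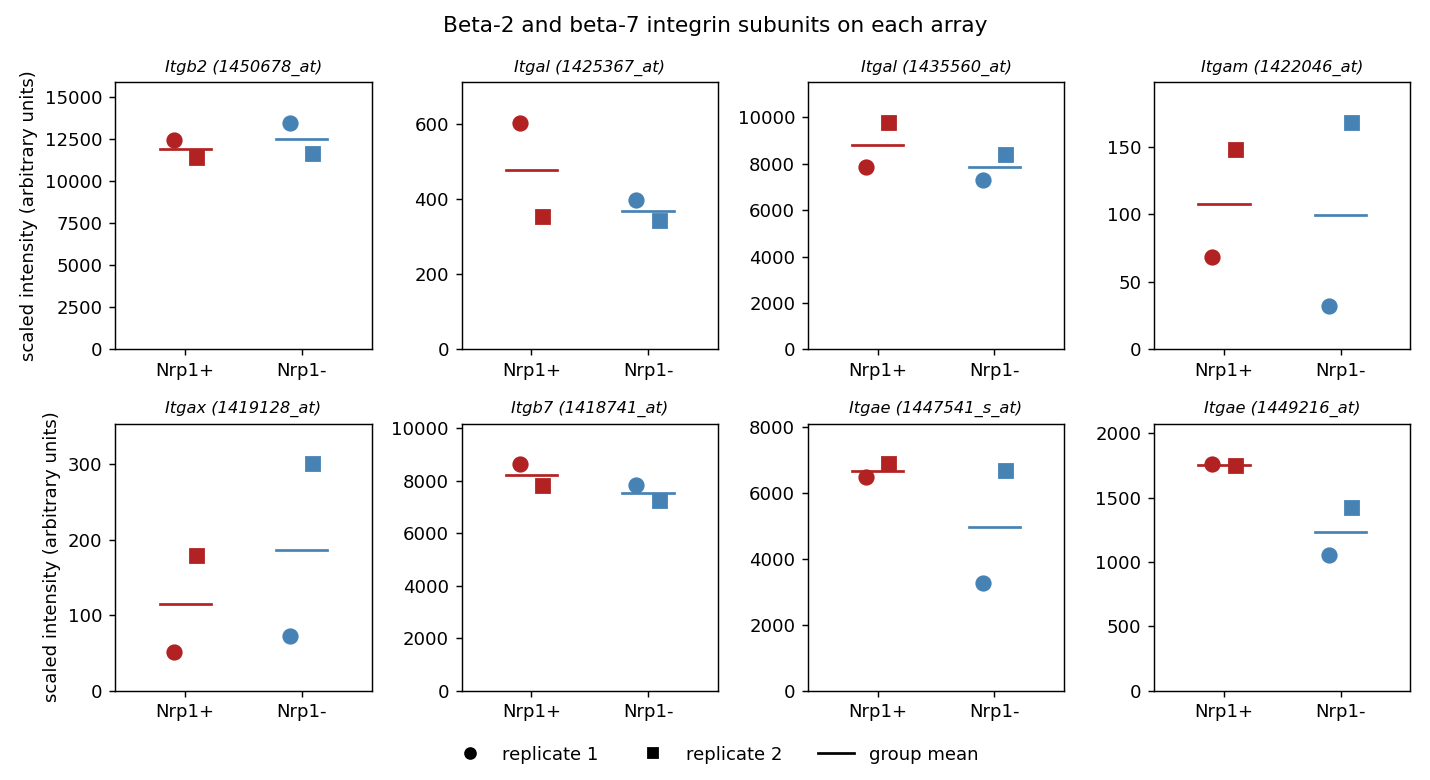
Scaled intensity (arbitrary units, linear axis from 0) of each integrin probe set on the 4 arrays, with Nrp1-positive arrays in red and Nrp1-negative arrays in blue. Circles are replicate 1, squares replicate 2 and bars group means. The Itgae probe set 1447541_s_at was between 6481 and 6874.5 on 3 arrays and at 3262 on Nrp1-negative replicate 1, while Itgam and Itgax were higher on both arrays of replicate 2.

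The beta-7 family was led by Itgae. At probe set 1447541_s_at its intensity was 6481 and 6874.5 in Nrp1-positive replicates 1 and 2, against 3262 and 6682 in Nrp1-negative replicates 1 and 2. Nrp1-negative replicate 1 was thus the low array, the other 3 lay close together, and the groups overlapped. The log2 difference was 0.99 within replicate 1 and 0.04 within replicate 2, with a mean of 0.51 (standard error 0.18, limma with the block, adjusted p = 0.539). In replicate 1 only 2.04% of all tested probe sets had a difference at least as high, and in replicate 2 it was 48.9%.

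The second Itgae probe set, 1449216_at, had intensities of 1760 and 1743 in Nrp1-positive replicates 1 and 2, against 1057 and 1418 in Nrp1-negative replicates 1 and 2. Both Nrp1-positive arrays were above both Nrp1-negative arrays. It was the 1 integrin probe set of 8 whose groups did not overlap, where 20% of all tested probe sets did not overlap and 11.5% did so with Nrp1-positive cells higher. Its means were 1752 ± 11.8 in Nrp1-positive cells and 1237 ± 255 in Nrp1-negative cells (SD, n = 2 each). The log2 difference was 0.73 within replicate 1 and 0.30 within replicate 2, with a mean of 0.51 (standard error 0.14, limma with the block, adjusted p = 0.330). A difference at least as high was seen in 4.41% of tested probe sets in replicate 1 and 19.1% in replicate 2. Both probe sets read the same gene on the same arrays and are no replicates of each other.

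With either array of replicate 1 left out and the block kept, only the replicate 2 difference of Itgae remains, 0.04 at 1447541_s_at and 0.30 at 1449216_at. Nrp1-negative replicate 1, the array whose labels conflict, had the lowest Nrp1 intensity of the 4 arrays at every Nrp1 probe set, 339 at 1448943_at. With that array moved all the same to the Nrp1-positive group and no block, the Itgae differences were −0.34 and 0.06.

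Itgb7, the beta chain that pairs with alpha-E and alpha-4, was close between the groups. Its intensity was 8632 and 7801 in Nrp1-positive replicates 1 and 2, against 7835 and 7218 in Nrp1-negative replicates 1 and 2. Each Nrp1-positive array was a little above the Nrp1-negative array of its own number, and the groups overlapped. The log2 difference was 0.14 and 0.11 within replicates 1 and 2 and 0.13 on average, with a 95% interval of −0.12 to 0.37 (limma with the block, adjusted p = 0.928). This and the other intervals come from the same fit, for 1 probe set at a time. Set against Itgb7 within the same arrays, the Itgae difference was larger by 0.85 log2 units at 1447541_s_at and 0.59 at 1449216_at in replicate 1. In replicate 2 the corresponding values were −0.07 and 0.18.

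**Figure D2:**
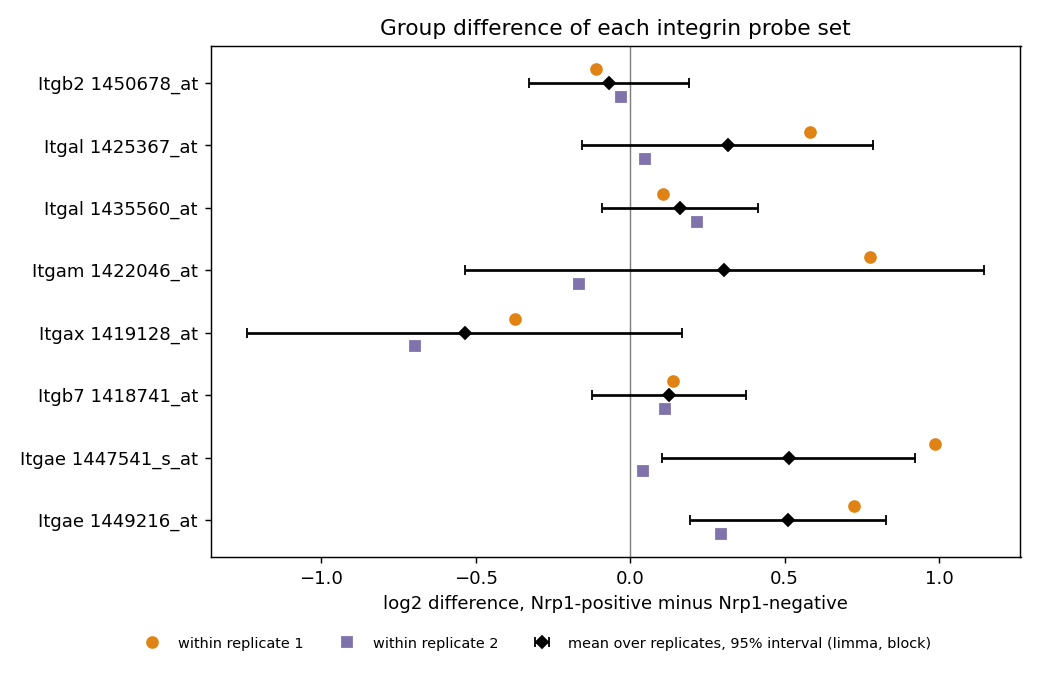
Log2 difference, Nrp1-positive minus Nrp1-negative, of each integrin probe set (horizontal axis) within replicate 1 (orange circles) and within replicate 2 (purple squares). Black diamonds are the means with 95% intervals from limma with the replicate number as a block. The Itgae intervals lie above 0, but neither probe set passed after adjustment over all 22519 probe sets, and Itgam had opposite signs in the replicates.

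In the beta-2 family, the shared beta chain Itgb2 did not pass and its interval spanned 0. Its intensity was 12462.5 and 11393 in Nrp1-positive replicates 1 and 2, against 13463 and 11617 in Nrp1-negative replicates 1 and 2. The arrays of replicate 1 were the higher ones in each group, and the groups overlapped. The difference was −0.11 within replicate 1 and −0.03 within replicate 2, or −0.07 on average with a 95% interval of −0.33 to 0.19 (limma with the block, adjusted p = 0.980).

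Itgal, the alpha chain of LFA-1, had 2 probe sets. At 1435560_at the intensity was 7856 and 9753 in Nrp1-positive replicates 1 and 2, against 7298 and 8399 in Nrp1-negative replicates 1 and 2. The Nrp1-positive array was higher in each replicate number, with overlapping groups. The difference was 0.11 and 0.22 within replicates 1 and 2, and 0.16 on average (95% interval −0.09 to 0.41, limma with the block, adjusted p = 0.879). At 1425367_at it was 603 and 354 in Nrp1-positive replicates 1 and 2, against 397 and 341 in Nrp1-negative replicates 1 and 2. Here Nrp1-positive replicate 1 stood above the other 3 arrays. The difference was 0.58 within replicate 1 and 0.05 within replicate 2 (mean 0.32, standard error 0.21, limma with the block, adjusted p = 0.869). The probe sets of this gene thus placed the larger difference in different replicates.

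Itgam and Itgax, the alpha chains known from myeloid and dendritic cells, had low intensities that followed the replicate number. Itgam was 68.1 and 147 in Nrp1-positive replicates 1 and 2, against 32.2 and 167 in Nrp1-negative replicates 1 and 2. Itgax was 51.5 and 178 in Nrp1-positive replicates 1 and 2, against 72.1 and 299.997 in Nrp1-negative replicates 1 and 2. Both genes were higher on the arrays of replicate 2 in each group, by a mean of 1.41 log2 units for Itgam and 1.65 for Itgax. All 4 values of replicate 1 lay under 72.4, the mean level that a probe set needed to be tested, so both genes passed that filter through replicate 2.

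Between the groups, Itgam differed by 0.78 within replicate 1 and by −0.16 within replicate 2, the 1 integrin probe set of 8 with opposite signs. Its mean difference was 0.31 with a 95% interval of −0.53 to 1.14 (limma with the block, adjusted p = 0.971). Itgax differed by −0.37 within replicate 1 and −0.70 within replicate 2, and a difference at least as high as the second was seen in 97.6% of tested probe sets. Its mean difference was −0.53 with a 95% interval of −1.24 to 0.17 (limma with the block, adjusted p = 0.838).

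Markers of myeloid cells moved with the replicate number too. Of 15 listed markers of myeloid and dendritic cells, 10 were tested, none of them particular to dendritic cells. At the tested probe set with the highest mean, all 10 were higher on the array of replicate 2 in both groups, by a mean of 0.87 to 3.03 log2 units, with a median of 2.16. At the other Csf1r probe sets, replicate 2 minus replicate 1 was −0.12 (1423593_a_at) and 2.05 (1419873_s_at). The dendritic cell genes Xcr1, Siglech and Zbtb46 lay below the filter, and replicate 2 minus replicate 1 was −0.78 for Xcr1, −1.05 for Siglech and −0.65 to 0.34 over the Zbtb46 probe sets. Cd4 went the other way, with replicate 2 minus replicate 1 at −1.57 at the probe set with its highest mean and −0.45 at 1427779_a_at. For the other tested Treg and T cell markers, each at its probe set of highest mean, it ran from −0.51 to 0.55. Over the 13 listed genes with a probe set, the summed intensity was 16631 and 54169 in Nrp1-positive replicates 1 and 2, against 13691 and 58590 in Nrp1-negative replicates 1 and 2. Itgam put the 4 arrays in the same order as that sum, while Itgax had the arrays of replicate 1 the other way round. Lyz2, lysozyme of myeloid cells, was 1602 and 8504 in Nrp1-positive replicates 1 and 2, against 1087 and 8992 in Nrp1-negative replicates 1 and 2. In Nrp1-positive replicate 2, S100a8 was 21055 and S100a9 18301. Together with Lyz2 they made up most of that sum on each array, so it says little of the other listed genes. None of the listed markers was at 0, but without detection calls that does not tell whether they were detected. The part of such cells in the Itgam and Itgax levels was not tested, and fewer cells of a type cannot be told apart from less RNA per cell in these bulk samples. The myeloid list had 0 genes higher and 0 lower between the groups, with Mpeg1 at 0.84 and Cd14 at 0.41 as the largest differences (limma with the block, adjusted p = 0.736 and 0.952). Their signs were opposite in the replicates, with Mpeg1 at 1.78 and −0.11 and Cd14 at 1.06 and −0.24 within replicates 1 and 2.

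**Figure D3:**
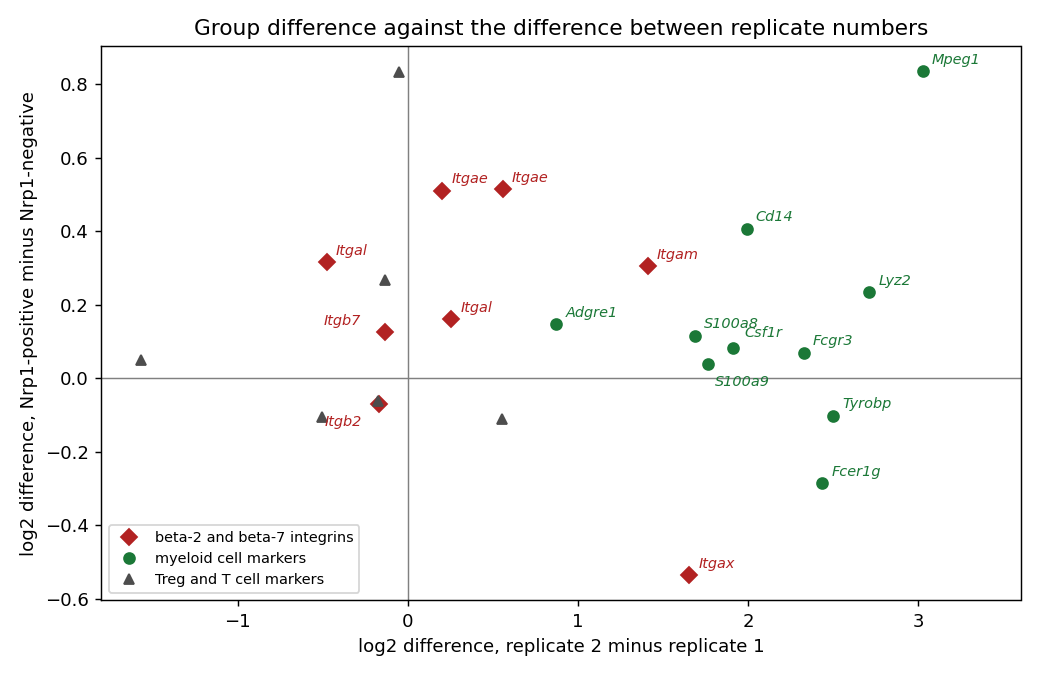
Log2 difference of Nrp1-positive minus Nrp1-negative (vertical axis) against replicate 2 minus replicate 1 (horizontal axis), 1 point a probe set, for the integrins (red diamonds), the 10 tested myeloid markers (green circles) and Treg and T cell markers (grey triangles). Itgam and Itgax, at 1.41 and 1.65, lie to the right within the range of the myeloid markers, 0.87 to 3.03, and the other integrins lie between −0.47 and 0.56.

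Markers of other lymphocytes were summed in the same way. The summed intensity of 4 B cell markers was 420.5 and 491 in Nrp1-positive replicates 1 and 2, against 314 and 445 in Nrp1-negative replicates 1 and 2. For 6 markers of CD8 T and NK cells it was 1755 and 2406 in Nrp1-positive replicates 1 and 2, against 1363 and 3107 in Nrp1-negative replicates 1 and 2. No tested gene of either list passed. In them Nkg7, a cytotoxic granule gene, differed by 0.76, Ncr1, an NK cell receptor gene, by −0.57 and Cd79b, of the B cell receptor, by 0.52. The part of these cells in the Itgal, Itgb2 and Itgae levels, which cytotoxic lymphocytes also express, was not tested.

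Over the 8 integrin probe sets the median difference was 0.23, at 0.36 in replicate 1 and 0.05 in replicate 2, beside 0.01, −0.01 and 0.03 over all 22519 tested. The sign was the same in both replicates for 7 of the 8, positive for 5 and negative for 2. Of all tested probe sets, 51.8% had 1 sign in both and 28.1% were positive in both. The 5 positive ones were of Itgae, Itgal and Itgb7 only, and probe sets of 1 gene are no replicates of each other.

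**Figure D4:**
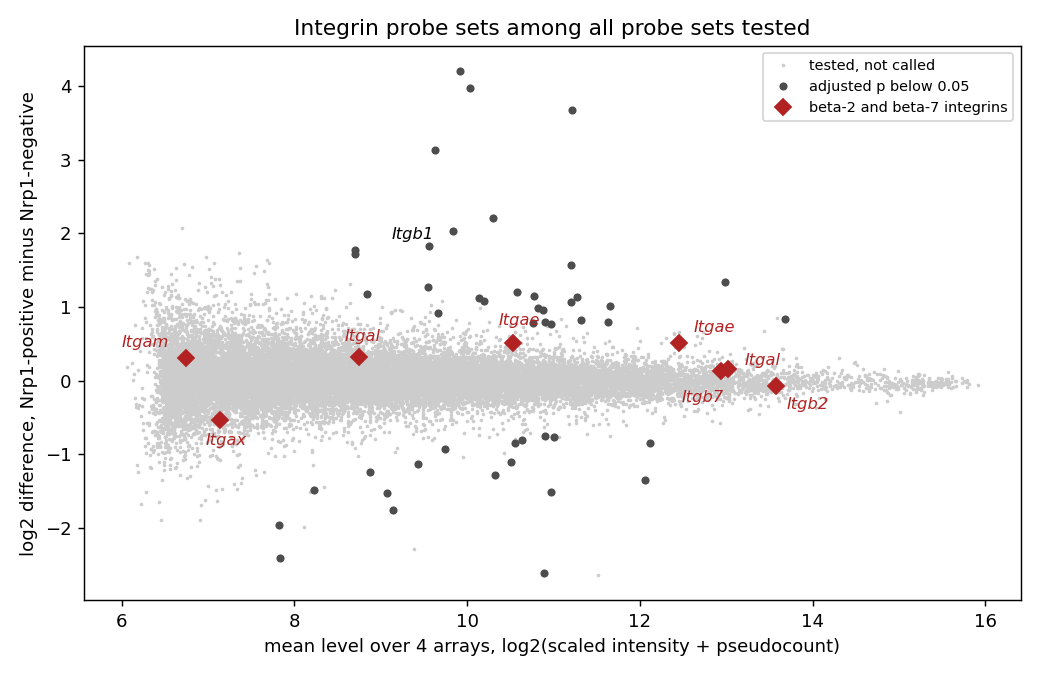
Log2 difference, Nrp1-positive minus Nrp1-negative (vertical axis), against the mean log2 level over 4 arrays (horizontal axis) for all 22519 probe sets tested. Dark points passed at an adjusted p below 0.05, 29 above 0 and 18 below, and red diamonds are the integrins, which lie between −0.53 and 0.51; the beta-1 gene Itgb1, labelled in black, lies at 2.02.

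The alternative partners of these chains included 1 gene that passed. Itga4, whose alpha-4 chain pairs with beta-7 or beta-1, had an intensity of 6420 and 7911 in Nrp1-positive replicates 1 and 2, against 5039 and 6854 in Nrp1-negative replicates 1 and 2 at the probe set with its highest mean. Its difference was 0.28 (standard error 0.11, limma with the block, adjusted p = 0.640), and over its 5 probe sets the mean difference was positive at each. Itgb1, the beta-1 chain that shares alpha-4 with beta-7, was 2166 and 1527 in Nrp1-positive replicates 1 and 2, against 304 and 616 in Nrp1-negative replicates 1 and 2. It rose by 2.02 log2 units (standard error 0.27, limma with the block, adjusted p = 0.0172), and did not pass without the block. Itgad, for the alpha-D chain of beta-2, was not analysed here.

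Of 17 other integrin subunit genes, 9 were tested and 0 passed in either direction. The median difference was 0.01, at −0.11 in replicate 1 and 0.15 in replicate 2. Itga7, a laminin-binding alpha chain, differed by 1.45 and Itgb8, a beta chain that activates latent TGF-beta, by 1.08 (limma with the block, adjusted p = 0.464 and 0.106). Itga7 was dim, at 144 and 133 in Nrp1-positive replicates 1 and 2, against 12.3 and 89.5 in Nrp1-negative replicates 1 and 2. Its difference was 2.41 within replicate 1 and 0.49 within replicate 2, and its Nrp1-negative mean of 50.9 lay under the filter level of 72.4. With quantile normalisation after the scaling, Itgb8 rose by 1.08 and Itgb5 fell by 1.00 (limma with the block, adjusted p = 0.0270 and 0.0229). With the median over the tested probe sets of each gene, Itgb8 rose by 1.08 and Itgb5 fell by 0.97 (limma with the block, adjusted p = 0.00236 and 0.00277). Each of these genes had a single tested probe set, so its difference was that of the main fit, and only the refit over 10204 genes differed. In the main fit Itgb5 had an adjusted p of 0.0976 (limma with the block). The Itgb5 probe sets below the filter were at −0.08, 0.24 and 0.17. Itgb5 was singled out after its values were seen.

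Ligands of these receptors did not pass. Of 11 listed, 5 were tested, with a median difference of 0.01, at 0.18 in replicate 1 and 0.07 in replicate 2. Icam1, the main ligand of LFA-1, was 1824 and 1980 in Nrp1-positive replicates 1 and 2, against 1286 and 1611 in Nrp1-negative replicates 1 and 2. Its groups did not overlap, and its difference was 0.40 (standard error 0.13, limma with the block, adjusted p = 0.451). Icam4, a red cell ligand of the family, differed by −0.21. The E-cadherin gene Cdh1 and the MAdCAM-1 gene Madcam1, whose products bind alpha-E and alpha-4 with beta-7, lay below the filter.

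Genes that switch integrins on from inside the cell, or tie them to actin, did not pass. Of 20 listed, 19 were tested and 0 passed in either direction, with a median difference of 0.04, at −0.02 in replicate 1 and 0.06 in replicate 2. The talin gene Tln1 differed by 0.19, the kindlin-3 gene Fermt3 by 0.05 and Rap1b, for a small GTPase of integrin activation, by −0.04. With each gene at its tested probe set of highest mean, the 2 largest differences were −0.38 for Fyb, the adaptor ADAP (standard error 0.12, limma with the block, adjusted p = 0.464), and 0.27 for Flna, for filamin A, which binds beta chain tails (standard error 0.11, adjusted p = 0.649). Rasgrp2 differed by 0.05 at that probe set, but by −0.66 at 1438933_x_at (limma with the block, adjusted p = 0.233) and by −0.20 and 0.15 at its others. Fyb was 8841 and 8463 in Nrp1-positive replicates 1 and 2, against 12794 and 9890 in Nrp1-negative replicates 1 and 2, with no overlap. The other Fyb probe set, 1452117_a_at, differed by −0.12.

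Among the 6 tested Treg and T cell markers, Ikzf2, for the transcription factor Helios, rose by 0.83 log2 units (standard error 0.13, limma with the block, adjusted p = 0.0443), and did not pass without the block. Il2ra, the alpha chain of the receptor for interleukin-2, differed by 0.27 (adjusted p = 0.672), and Cd4 by 0.05 (0.988). Nrp1 itself passed with the block at all 4 of its probe sets, with mean differences of 3.13 to 4.20. Without the block it passed at none of them.

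Itgax had the widest range of the integrin probe sets over the 4 arrays, 2.19 log2 units. Of 18827 other probe sets tested with a single gene, those closest to it in centred log2 level were of Exo1, Pilra, Tacc3, Mpo and Cdca5, at root mean square distances of 0.05 to 0.07 log2 units over 4 arrays. Exo1 is a DNA repair exonuclease, Pilra an inhibitory receptor, Tacc3 a spindle protein, Mpo myeloperoxidase and Cdca5 a cohesin regulator. Each was higher on the arrays of replicate 2, as Itgax was, which follows from choosing them by closeness to Itgax. The 4 arrays give little room to tell patterns apart.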

How the data were processed

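RNA from sorted spleen cells was extracted with Trizol, labelled with biotin and hybridised to 1-colour Affymetrix arrays, per the labels' protocols. The deposited intensity of each probe set is a linear MAS5 signal, per the submitters' processing notes, which give no version, settings or detection calls. The number of arrays limits the precision.

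The 4 arrays were scaled to a mean of 500.003 after trimming 2% at each end, and 18.3, or 0.25 of the mean array median, was added before log2, so fold changes of dim genes are understated. Of 45101 probe sets, 64 controls were left out and those at or above percentile 50 of mean level over all arrays were kept, which left 22519. Gene names came from the platform annotation (34945 probe sets with 1 gene, 932 with several, 9160 unnamed here), and 0 symbols changed through RefSeq. The test was limma 3.58.1 in R 4.3.3 (two-sided, empirical Bayes, prior variance trended on level, Benjamini-Hochberg over all tested), with 1 residual degree of freedom and 9.26 from the prior. The code of the fit was run on simulated data whose noise did not depend on level, so that run did not test the trend of the prior variance. Exact permutation of 2 against 2 arrays cannot give a p below 0.333.

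Same-numbered arrays share a scaling target in the files, and their deviations from the group means correlated at 0.69 over the tested probe sets. The replicate number was therefore a block, and the fit without it was an alternative. A listed gene was represented by its tested probe set with the highest mean. Named were all members, Nrp1, the partner subunits, any listed gene that passed, the 2 largest differences of each list and the 5 genes closest to the most variable member; Tln1, Fermt3, Rap1b, Cd3e, Cd4, Lyz2, Foxp3, Cdh1, Madcam1, Xcr1, Siglech and Zbtb46 were added as background. Rasgrp2, Csf1r, S100a8 and S100a9 were named after their values were seen. Members and lists were chosen with earlier results of these data known. Drawings were made with matplotlib 3.10.9.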

Additional observations from a re-analysis of the deposited data

How the results depend on the processing

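Under none of the 12 alternatives with a test did an integrin probe set pass. The lowest adjusted p was 0.205, for the Itgae probe set 1447541_s_at with quantile normalisation (limma with the block). Some of the 12 passed 0 of all probe sets, so no integrin could have passed in them. Over all probe sets, 29 higher and 18 lower became 79 and 54 with quantile normalisation, 16 and 8 with no filter, and 0 and 0 without the replicate block (233 at an unadjusted p below 0.05). They became 0 and 0 without the mean-variance trend (1495 unadjusted) and 0 and 0 when Nrp1-negative replicate 1 was moved to the Nrp1-positive group with no replicate block (730 unadjusted). With a pseudocount of 1.0 of the mean array median the lower calls were 10. With an array left out and no replicate block, 0 to 3 were higher and 0 lower. Over all lists, 2 genes higher and 0 lower became 0 and 0 without the replicate block, and 3 and 1 with quantile normalisation or with the median over a gene's probe sets, where Itgb8 was gained among the higher and Itgb5 among the lower. The causes were not tested.

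The sign of 13 of 128 integrin values turned. With the block kept there were 2, both Itgam, at −0.16 without either array of replicate 1, and the other 11 came without the block, where the replicate number and the group mix. Without Nrp1-negative replicate 1, Itgb2 was 0.037, Itgam −0.63 and Itgae −0.0015 (1447541_s_at). With it moved to that group, Itgb2 was 0.095, Itgal −0.028 (1435560_at), Itgam −1.05 and Itgae −0.34 (1447541_s_at). Without Nrp1-positive replicate 1, Itgal was −0.055 (1425367_at) and Itgax 0.21; without Nrp1-positive replicate 2, Itgam was −0.16; without Nrp1-negative replicate 2, Itgax was 0.37. Leaving out an array with the block kept gives the difference within the other replicate number, with no test.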
